A study of Danio rerio with 48 samples.

Results

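The comparison is between whole brains of adult zebrafish of the F2 generation and of the F0 generation, both from the lineage labelled PH. It used 16 of the 48 libraries of the study, all 8 F2 PH libraries and all 8 F0 PH libraries, with 4 females and 4 males in each generation. They were taken by their labels, with earlier results of these data known, and every gene with enough counts was tested. The fish were of the AB line, a laboratory strain of zebrafish. The F2 PH fish were unexposed descendants, and the F0 PH fish had themselves been exposed early in life to permethrin, a pyrethroid insecticide, at the 10 µg/L given in the series title. PH is read here as the lineage of that exposure and SCA as the control lineage, since the labels do not spell the letters out. Generation also stands for the fish's rearing and for the time at which they were sampled, so a difference between F2 and F0 PH brains cannot be told apart from these. Sequencing lanes are read here from the names of the deposited count tables, since the labels do not give them. By that reading, all 8 F0 PH libraries ran on lane L4. Of the F2 PH libraries, 6 ran on lane L3 and 2 on lane L2, so that lane and generation cannot be told apart either. In the SCA lineage all F2 libraries ran on L3, and in F0 the females ran on L4 and the males on L2. The 8 F2 and 8 F0 libraries of the SCA lineage, which were not exposed in either generation, give the same comparison of generations beside it. Nothing in the labels says that each library came from a separate fish, and p-values measure the spread between these libraries.

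Pyrethroids such as permethrin act on voltage-gated sodium channels of nerve cells and hold them open. The gene groups described below are those of nerve cell excitability, of the circadian clock and of the machinery that makes protein and energy. In the vertebrate clock, the activators Clock and Bmal switch on period, cryptochrome and other repressor genes, whose products then switch the activators off. Zebrafish carry extra copies of many of these genes, and light drives several of them directly. Ribosomal proteins are the structural parts of the ribosome, and their transcripts are made and translated in a coordinated way.

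Counts in genes were 7381621 to 7604811 per F2 PH library and 7655597 to 8070777 per F0 PH library, so that every F2 library was slightly shallower than every F0 library. The part of depth in the results was not tested. Reads over no annotated feature were 63.8 to 65.4% of the total in F2 and 63.1 to 64.6% in F0. Levels are given in CPM, counts scaled to a common library size. They cannot be compared between genes, since no gene lengths were used. Neuronal and oligodendrocyte markers were high in every library. The 4 neuronal marker genes summed to 7208 to 9564 CPM in F2 (median 8468) and 7017 to 9819 CPM in F0 (median 7284). The 6 oligodendrocyte markers summed to 7276 to 15495 CPM in F2 (median 8822) and 6430 to 20810 CPM in F0 (median 9355). Skeletal muscle markers, which a brain should lack, summed to 3.04 to 10.5 CPM in F2 and 4.76 to 19.2 CPM in F0. The liver and yolk markers reached 616 CPM in 1 F2 library and 106 CPM in 1 F0 library, with medians of 17.1 CPM in F2 and 16.4 CPM in F0.

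In F2 PH brains, 2120 genes were higher and 3162 lower than in F0 PH brains, of 17758 genes tested, which is 11.9% higher, 17.8% lower and 29.7% in all. A gene is counted as changed, or called, when edgeR's quasi-likelihood test gave an adjusted p (Benjamini-Hochberg, over all genes tested) under 0.05. The changes differed in size by direction. The genes that rose had a median log2 fold change (F2 over F0) of 0.36, and 85 of them rose by more than 2-fold. The genes that fell had a median of -0.98, and 1517 of them fell by more than 2-fold. The genes that fell were also lower in level, with a median level of 8.20 CPM, against 36.5 CPM for the genes that rose and 12.3 CPM for all genes tested. The median gene moved by 0.015 on the log2 scale. With library size alone in place of TMM scaling, which corrects for a few genes taking up much of a library, the split became 1207 higher and 3595 lower, and the median gene moved by -0.07. Against a fold of 1.5 in place of 0, edgeR's glmTreat left 16 genes higher and 647 lower.

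**Figure D1:**
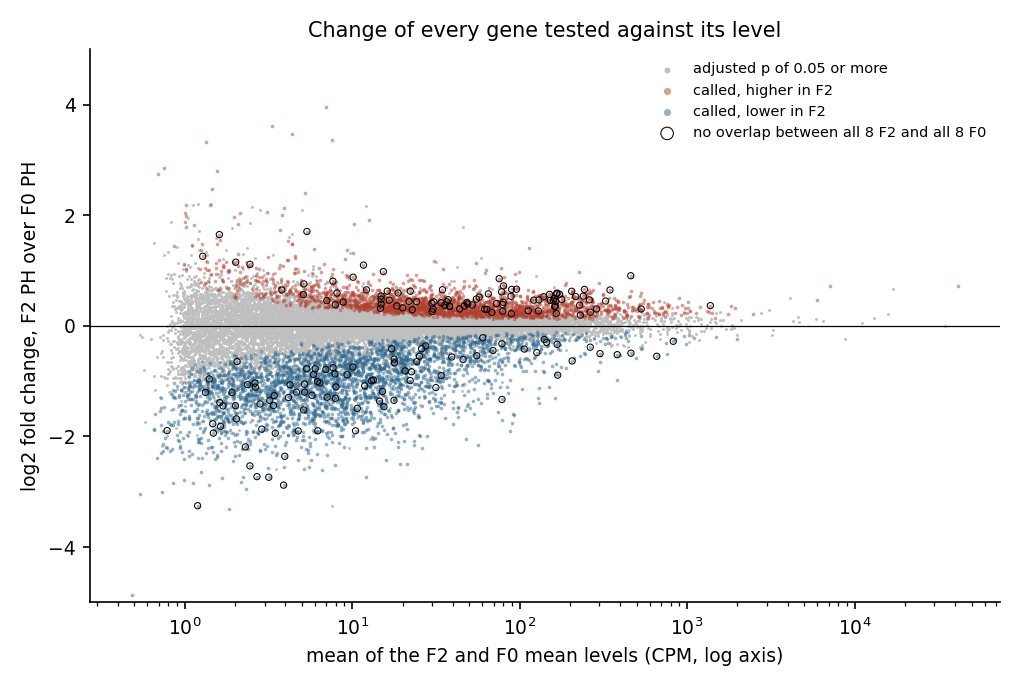
Each point is 1 of the 17758 genes tested; the horizontal axis is its level in CPM (log axis) and the vertical axis its log2 fold change in PH brains, F2 over F0. Most of the 2120 genes called higher lie close above 0, the 3162 called lower spread further down at low and middle levels, and rings mark the 185 genes whose 8 F2 libraries did not overlap the 8 F0 libraries.

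Libraries did not all follow their generation. On the first principal component of all genes tested, which held 43.1% of the variance, F2 PH libraries scored from 26.7 to 43.6, apart from male 9 at -8.86. F0 PH libraries scored from -58.1 to -31.8, apart from female 9 at -0.37 and male 12 at 29.3, within the range of the other F2 libraries. F2 male 11 stood apart on the second component, with a score of 49.2. These numbers are the replicate numbers of the labels. The 100 genes of most counts held 34.6% of counts in F0 male 12 and 29.2% in F0 female 9, the highest shares in F0. In F2 male 9 they held 27.6%, the lowest share in F2. TMM factors were 0.899 in F0 male 12 and 1.01 in F0 female 9, the lowest of F0. F2 male 9 had the highest of F2, at 1.06. What this spread of counts over genes contributed to the results was not tested. Without F0 male 12 the count of called genes was 6761, and without F0 male 12 and F0 female 9 it was 6958, a choice made after seeing the data. In all, 185 genes had every F2 PH library on one side of every F0 PH library, 94 higher in F2 (0.529% of genes tested) and 91 lower (0.512%), and all 185 were called.

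**Figure D2:**
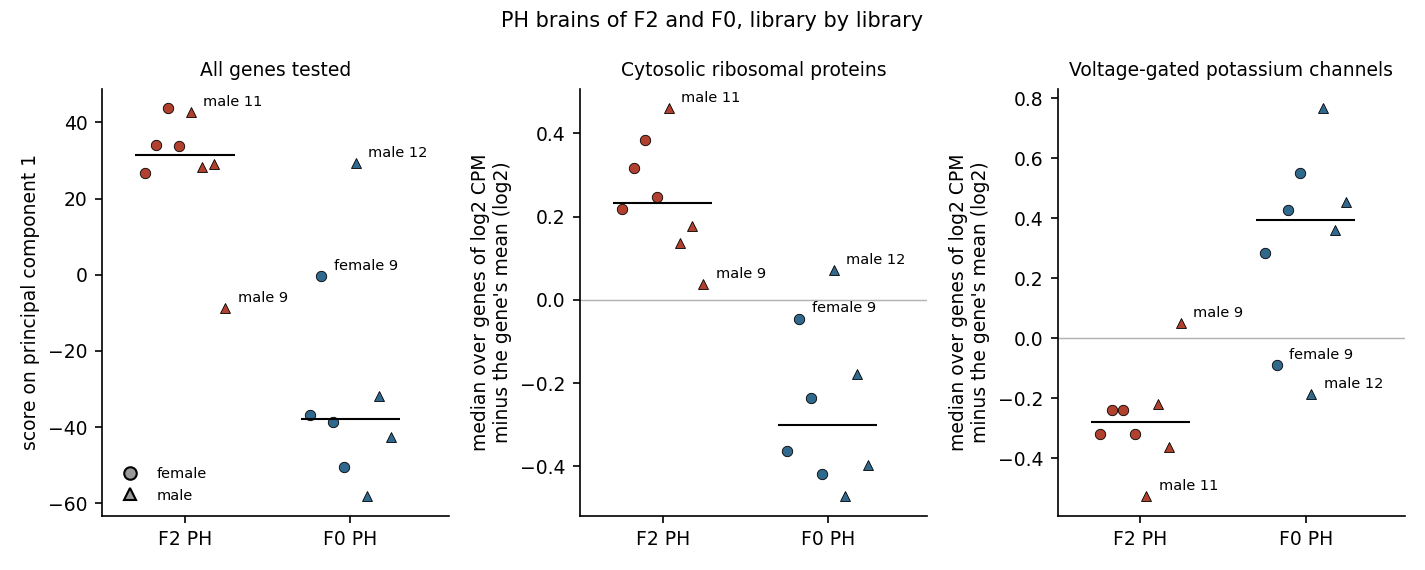
Each symbol is 1 PH library, circles female and triangles male, with F2 left of F0 and a line at the median of 8; the left panel gives the score on the first principal component, the others the median over 82 ribosomal protein genes or 42 potassium channel genes of the log2 level minus the gene's mean. F0 male 12 and F0 female 9 lie toward the F2 libraries in all 3 panels, and F2 male 9 lies toward F0.

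Among the genes with no overlap between generations, the gene cry3a (ENSDARG00000069074), a cryptochrome, was one of the clearest that rose. It had 465, 635 and 687 CPM (lowest, median, highest) in F2 PH and 280, 316 and 432 CPM in F0 PH. The highest F0 library, male 12, stayed below the lowest F2 library. Its log2 fold change was 0.91 ± 0.10 (SE, edgeR adjusted p = 0.00032). The largest rise among named genes without overlap was that of wdr76, a WD-repeat protein gene, with 4.79, 7.60 and 12.2 CPM in F2 and 0.841, 2.36 and 4.76 CPM in F0 (log2 fold change 1.71 ± 0.30, edgeR adjusted p = 0.0015). The DNA repair gene cpdp, a photolyase that uses light to undo ultraviolet damage, averaged 20.4 CPM in F2 and 10.3 CPM in F0. Others among the 94 genes higher without overlap were cd22, CLCN5 (a chloride transporter), the co-chaperone gene dnajc4, the selenoprotein gene selenow1 and 21 ribosomal protein genes. A 5S_rRNA copy (ENSDARG00000115865) also rose, by 1.65. It is a gene of many near-identical copies, whose reads may not align to a single copy, so its value is uncertain.

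The genes that fell without overlap included several of nerve cells. The phosphatase gene ptpro, known for roles in axon growth, had the smallest p of all genes named here, with 12, 14.7 and 20.4 CPM in F2 PH and 21.7, 25.2 and 35.7 CPM in F0 PH. Its log2 fold change was -0.81 ± 0.08 (edgeR adjusted p = 0.00025). SEMA3A (ENSDARG00000042210), which encodes a repellent axon guidance cue, had 0, 0.758 and 1.39 CPM in F2 and 1.44, 4.23 and 7.12 CPM in F0. These are low levels, and the fold change of such a gene rests on few counts. SLC24A2, a sodium, potassium and calcium exchanger, averaged 2.63 CPM in F2 and 9.86 CPM in F0 (log2 fold change -1.90 ± 0.28). Larger folds were those of FIBCD1 at -2.88, HLF (ENSDARG00000061011) at -2.74, palm2akap2 at -2.73, BTBD17 at -2.36 and the small GTPase gene RAP2A at -2.19. RAPGEF6 and RASGRP2, both exchange factors for Rap or Ras proteins, fell by 0.83 and 1.90. The transcription factor gene crema averaged 9.34 CPM in F2 and 21.0 CPM in F0, a log2 fold change of -1.19 ± 0.14. PRUNE1, CEP170B, PACS2 and LNX1 fell by 1.94, 1.90, 1.52 and 0.42 on the log2 scale, again with no overlap of the libraries.

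Of 59 tested genes on 3 lists of the clock, 7 rose and 28 fell, against the 11.9% of all genes that rose and 17.8% that fell. The lists were chosen with earlier results of these data known, so these counts are a description and no test. Of the activators and their nuclear receptors, 2 of 17 rose and 7 fell. Both genes that rose are copies of BMAL1, the partner of Clock. The copy ENSDARG00000035732 averaged 13.6 CPM in F2 and 7.86 CPM in F0 (log2 fold change 0.81 ± 0.15, edgeR adjusted p = 0.0017), and ENSDARG00000006791 changed by 0.60 ± 0.15. The REV-ERB receptor gene NR1D1, which represses Bmal genes, had 55.8, 118 and 181 CPM in F2 PH against 193, 222 and 245 CPM in F0 PH. All F2 libraries lay below all F0 libraries, and the log2 fold change was -0.89 ± 0.17 (edgeR adjusted p = 0.0018). The related nr1d4a and nr1d4b fell by 1.01 and 1.32. A pair of CLOCK copies fell, ENSDARG00000003631 by 0.75 and ENSDARG00000011703 by 0.99, and so did RORB by 1.53 and RORA by 0.43.

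Of 24 genes on the clock repressor list, 5 rose and 10 fell, and genes with cryptochrome names were on both sides. The list went by gene name, and whether each member, such as cry5 or cry-dash, represses the clock was not tested. Besides cry3a, the genes that rose were its paralog cry3b (1.04 ± 0.17), cry5 (0.63 ± 0.11), cry-dash (0.61 ± 0.11) and the kinase gene csnk1e (0.32 ± 0.07). CRY2, a repressor of Clock and Bmal, averaged 88.2 CPM in F2 and 134 CPM in F0 (log2 fold change -0.60 ± 0.13, edgeR adjusted p = 0.003). Its highest F2 library had 120 CPM and its lowest F0 library 118 CPM. A pair of copies of PER1, a period gene, fell. The copy ENSDARG00000012499 had 232, 329 and 393 CPM in F2 and 396, 451 and 518 CPM in F0, with no overlap, and ENSDARG00000056885 fell by 0.74. The basic helix-loop-helix repressor BHLHE41 averaged 214 CPM in F2 and 377 CPM in F0 (log2 fold change -0.81 ± 0.13), and BHLHE40 fell by 0.27. The repressor genes ciartb and ciarta fell by 1.75 and 0.66. The kinase gene CSNK1D fell by 0.22 and nfil3-6, a repressor that competes with the output factors, by 0.57. The F2 libraries were not alike on this list. Its summed level was 4406, 4075 and 4243 CPM in F2 female 16, male 11 and male 12, within the F0 range of 3987 to 4648 CPM. F2 male 9 was the lowest, at 3156 CPM. F2 female 16, male 11 and male 12 also had the highest F2 levels of PER1 (ENSDARG00000012499), CRY2, BHLHE41 and NR1D1.

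None of the 18 clock output genes rose and 11 fell, with a list median of -0.65 against 0.015 for all genes. The output factors of the PAR bZIP family, which pass the clock's rhythm on to other genes, were prominent. The gene dbpa had 32.6, 44.2 and 55.5 CPM in F2 PH and 66.3, 118 and 133 CPM in F0 PH. Its log2 fold change was -1.33 ± 0.14 (edgeR adjusted p = 0.00026), and the F0 library nearest to F2 was male 12. Its paralog dbpb averaged 140 CPM in F2 and 239 CPM in F0 and fell by 0.75. The gene tefb had 28.4, 43.4 and 69.8 CPM in F2 and 51.3, 152 and 171 CPM in F0. All F0 libraries but male 12, at 51.3 CPM, had 125 CPM or more. The Clock-interacting repressor genes cipca and cipcb fell by 1.46 and 0.33, usp2b by 1.89, hlfa by 0.68 and NAMPT, an enzyme of NAD synthesis, by 1.03. KLF9, a transcription factor that glucocorticoids induce, averaged 10.1 ± 5.07 CPM in F2 and 41.0 ± 34.0 CPM in F0 (SD, n = 8 each). Its F0 libraries ranged from 4.21 to 109 CPM and overlapped those of F2, at 4.14 to 20.2 CPM. Of 9 photolyase and light-induced repair genes, 6 rose and none fell. These included the DNA repair genes NEIL1 and XPC, at 0.85 and 0.48.

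**Figure D3:**
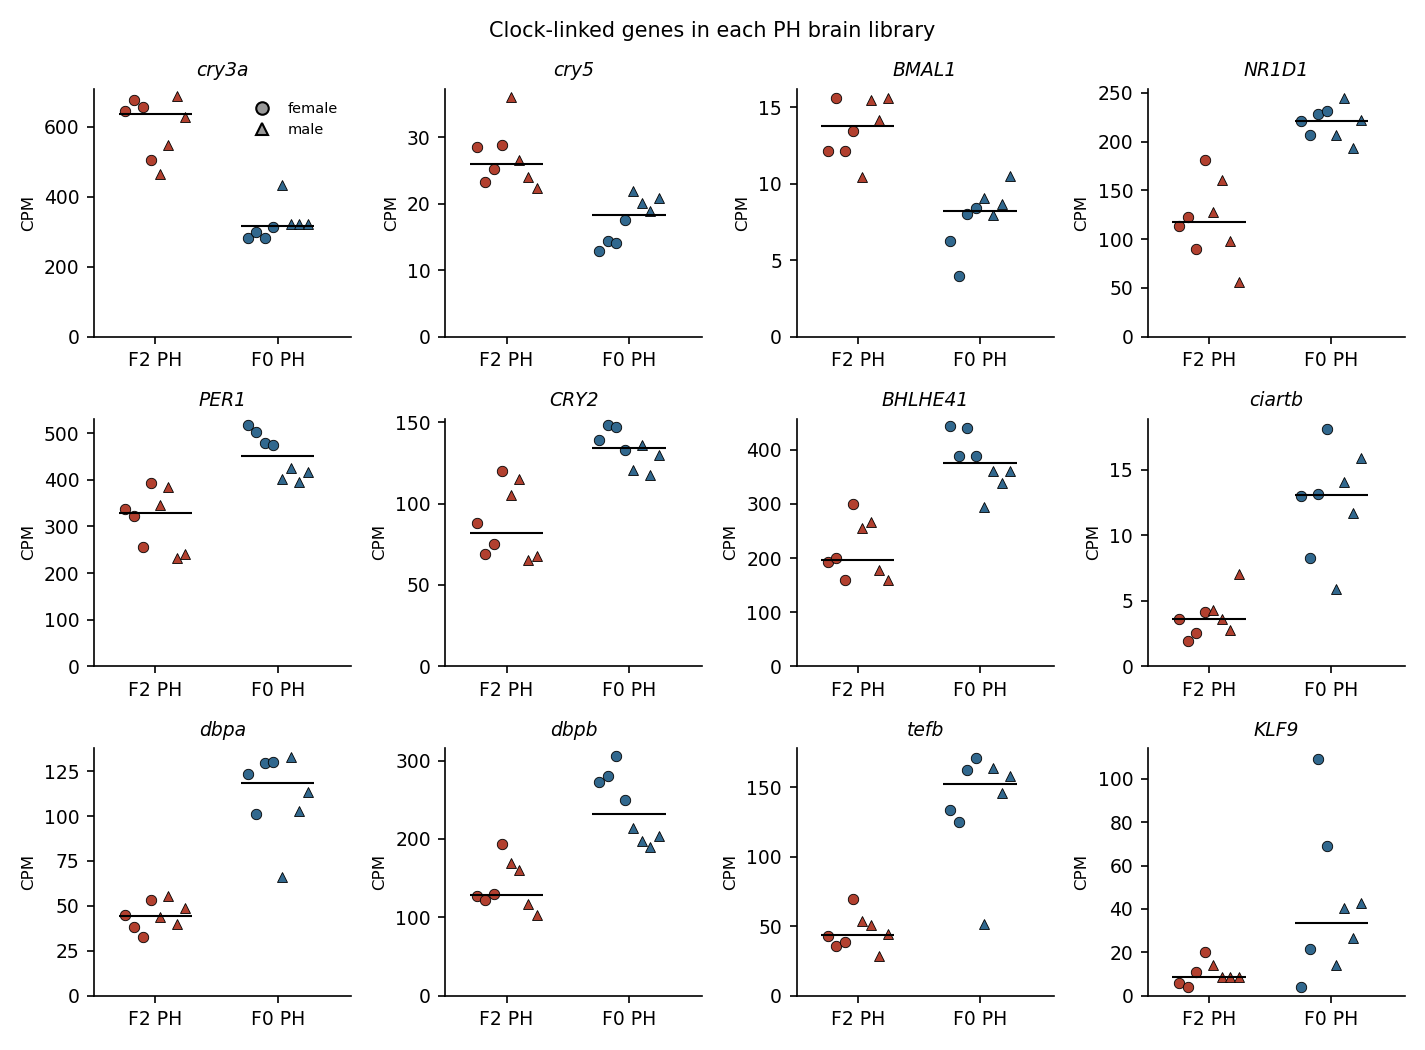
Level in CPM (vertical axes from 0) of 12 clock-linked genes in each PH library, F2 left of F0, circles female and triangles male, with a line at the median of 8. For cry3a and dbpa the 8 F2 libraries lie wholly above and wholly below the 8 F0 libraries, and F0 male 12, with the lowest tefb of F0 at 51.3 CPM, lies toward F2 in several panels. F2 female 16, male 11 and male 12 have the highest F2 levels of PER1, CRY2, BHLHE41 and NR1D1.

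Transcripts of cytosolic ribosomal proteins were higher in F2 PH brains almost throughout. Of 82 genes tested, 80 rose and 1 fell, with a median log2 fold change of 0.50, where 11.9% of all genes rose. The summed level of the list was 17600 to 23527 CPM in F2 and 12493 to 18255 CPM in F0. The overlap came from F0 male 12, at 18255 CPM, and the other 7 F0 libraries lay at or below 16725 CPM. For 21 of the 82 genes every F2 library lay above every F0 library, as for 0.529% of all genes. RPL12 had 265, 276 and 329 CPM in F2 and 173, 193 and 234 CPM in F0, with a difference of 0.54 ± 0.07 in log2 units (adjusted p = 0.00093 by edgeR). RPL38, RPS29 and rps20 rose by 0.72, 0.66 and 0.66, and RPS23, rpl7a and RPL36AL by 0.53, 0.45 and 0.59. The gene rps27l, at 0.17 ± 0.16, did not pass the test. No ribosomal protein gene passed the test against a fold of 1.5. Ribosomal protein genes have many near-identical copies and pseudogenes. Reads without a unique alignment had a summary line of their own, at 2.89 to 3.12% of the total in F2 PH and 2.61 to 3.04% in F0 PH. Whether such reads were also counted for genes is not given in the sources used here.

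Of 113 nuclear genes of oxidative phosphorylation, the chain in mitochondria that makes ATP, 35 rose and 7 fell (median log2 fold change 0.15). In all 37.2% were called, against 29.7% of all genes. The list median was 0.23 in females and 0.07 in males. Its summed level was 9329 to 11277 CPM in F2. In F0 it was 7985 to 9046 CPM in females, below every F2 library, and 9362 to 10900 CPM in males, within the F2 range. NDUFV1 of complex I averaged 160 CPM in F2 and 132 CPM in F0 (0.27 ± 0.04), and uqcc3, an assembly factor of complex III, 50.8 CPM in F2 and 33.6 CPM in F0 (0.61 ± 0.09). Among those that fell were COX5B at -0.89 and ndufa9b at -1.19. With library size alone the count was 23 higher and 9 lower. None of the 13 protein genes of the mitochondrial genome passed the test, and their summed level was 82867 to 141355 CPM in F2 and 76556 to 141228 CPM in F0. Of 19 genes of the cold and RNA-binding list, 11 rose and none fell. The cold-inducible RNA-binding protein genes cirbpb and cirbpa rose by 0.34 and 0.37, the kinase genes clk4a and CLK1, which phosphorylate splicing factors, by 0.43 and 0.44, and RBM5 and srsf5a, both of splicing, by 0.41 and 0.33. The most abundant transcript by count, the nuclear noncoding RNA malat1, was singled out after its values were seen. It averaged 51942 ± 10138 CPM in F2 and 31454 ± 11424 CPM in F0 (SD, n = 8 each). The log2 fold change was 0.72 ± 0.19 with an edgeR adjusted p of 0.01.

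Genes of nerve cell excitability were mostly on the lower side. Among all genes tested, 11.9% rose and 17.8% fell. None of 42 voltage-gated potassium channel genes, which bring the membrane back to rest, rose, and 23 fell, with a list median of -0.87. That median weights genes of low and high level alike. The summed level of the list differed less, at 842 to 991 CPM in F2 (median 932) and 955 to 1158 CPM in F0 (median 1103). KCNA1, of a channel of axons, averaged 2.97 CPM in F2 and 8.75 CPM in F0 (log2 fold change -1.57 ± 0.27, edgeR adjusted p = 0.0014). KCNB2 fell by 2.33 and kcnc3a, of a channel for fast firing, by 0.79. The list's median deviation from each gene's mean was -0.53 to 0.049 in F2 libraries and -0.19 to 0.77 in F0 libraries. F0 male 12 and F0 female 9, at -0.19 and -0.09, were below F2 male 9 at 0.049. Without these 2 F0 libraries 2 potassium channel genes were higher and 24 lower. Of the sodium channel genes, on whose products pyrethroids act, 4 of 10 fell and none rose. SCN8A averaged 27.5 CPM in F2 and 47.4 CPM in F0 (-0.81 ± 0.17, edgeR adjusted p = 0.0028), and the auxiliary subunits SCN4B and SCN2B fell by 1.51 and 1.78. Of 42 calcium channel genes, 1 rose and 19 fell, among them cacna1eb at -1.28, cacna1da at -0.57, CACNA2D2 at -0.51 and the subunit gene CACNB4 at -2.07. The median summed level of the calcium channel list was 1809 CPM in F2 and 2079 CPM in F0. Of 16 genes of the sodium pump, which restores the sodium and potassium gradients, 3 rose and 5 fell. The subunit gene ATP1B1 averaged 396 CPM in F2 and 590 CPM in F0.

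Among genes of inhibition, 15 of 33 (45.5%) fell and none rose, where 17.8% of all genes fell. Their summed level was 3115 CPM in F2 male 11 and 4967 to 6358 CPM in the other F2 libraries, against 5090 to 6153 CPM in F0. F2 male 11 also had the lowest summed level of the optic tectum list, at 1086 CPM, and the highest of the cerebellum list, at 10874 CPM. Without it, 15 of 34 genes of inhibition were lower and 0 higher. GABRA4, a subunit of the GABA-A receptor, had 5.95, 7.03 and 12 CPM in F2 PH and 12.6, 22.0 and 25.6 CPM in F0 PH. The highest F2 library, male 12, lay just below the lowest F0 library, also a male with the number 12, and the log2 fold change was -1.36 ± 0.19 (edgeR adjusted p = 0.00093). The subunit genes gabrb4 and GABRD fell by 1.94 and 1.23, and a copy of GAD1 (ENSDARG00000093411), which makes GABA, by 1.51. Of 53 genes of glutamate receptors and transport, 4 rose and 19 fell, while the summed level had a median of 8147 CPM in F2 and 8091 CPM in F0. The vesicular transporter gene SLC17A6 (ENSDARG00000041150) had 178, 239 and 254 CPM in F2 and 271, 302 and 324 CPM in F0, with no overlap. GRIN2B (ENSDARG00000079348) fell by 1.55, and gria4a rose by 0.39. Of 72 genes of the synaptic vesicle and active zone, 3 rose and 26 fell, with a median summed level of 21068 CPM in F2 and 21333 CPM in F0. SYT3, a calcium sensor for vesicle release, averaged 23.8 CPM in F2 and 44.3 CPM in F0 (-0.90 ± 0.12). RIMS3, SV2C, a copy of RAB3A (ENSDARG00000043835) and vamp1b fell by 2.60, 2.42, 2.05 and 1.37, whereas a copy of SNAP25 (ENSDARG00000058117) rose by 0.34. Of 49 monoamine genes 8 fell and none rose, or 16.3%, near the 17.8% of all genes that fell, with ADRA2B at -0.99 and the dopamine receptor gene DRD2 at -1.41. Of 50 neuropeptide genes 4 rose and none fell, or 8%, below the 11.9% of all genes that rose, among them TRH at 0.34, PENK at 0.36 and qrfp at 0.58. In these whole brains, fewer cells of a type and less RNA per cell cannot be told apart. The summed level of the 4 neuronal markers had a higher median in F2, at 8468 CPM, than in F0, at 7284 CPM, with overlapping ranges.

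**Figure D4:**
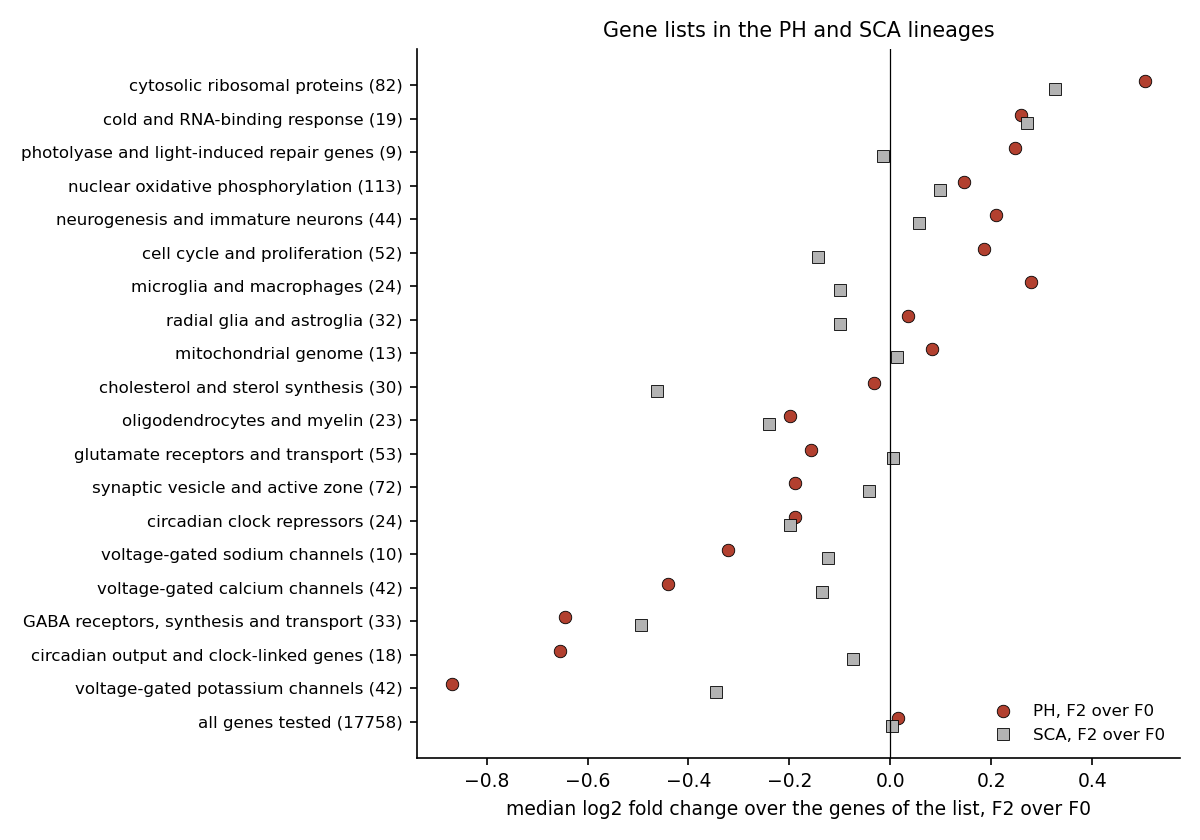
Median log2 fold change, F2 over F0, over the genes of 19 lists and all genes tested (horizontal axis), with the number of genes tested in the PH lineage in brackets; circles are the PH lineage and squares the SCA lineage. Ribosomal proteins have the highest PH median at 0.50 and potassium channels the lowest at -0.87, and the SCA medians of these lists, 0.33 and -0.34, lie on the same side of 0.

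Glial and progenitor lists were mixed. Of all genes tested, 11.9% rose, 17.8% fell and 29.7% were called. The share called was 37.5% of radial glia, 33.3% of telencephalic, 30.4% of interferon and 29.5% of neurogenesis genes. It was 26.1% of oligodendrocyte, 20.8% of cerebellar, 13.5% of proliferation and 8.3% of microglia genes. Of 23 oligodendrocyte and myelin genes 6 fell and none rose, including plp1b, of the myelin sheath, at -0.30, and the myelin regulator MYRF at -1.04. The summed level of this list ranged from 8101 to 16867 CPM in F2 and from 7255 to 22220 CPM in F0. Of 32 radial glia and astroglia genes, 8 rose and 4 fell. VIM, SOX2 and her4.1, all of radial glia, rose by 0.36, 0.24 and 0.75, and the glutamate transporter copy SLC1A3 (ENSDARG00000043148) and the GABA transporter SLC6A11 fell by 1.18 and 1.38. A copy of SOX9 (ENSDARG00000003293) averaged 7.12 CPM in F2 and 16.7 CPM in F0. Of 52 proliferation genes 7 rose and none fell, among them CCND1 (0.34), AURKB (0.93) and a copy of RRM2 (ENSDARG00000020711, 2.0). Of 44 genes of neurogenesis 10 rose and 3 fell, with gap43 at 0.31, DLX2 at 0.60 and ascl1b at 0.68, while a pair of NCAM1 copies, ENSDARG00000056181 and ENSDARG00000007220, fell by 1.45 and 0.81. Under library size alone this list counted 3 higher and 4 lower. Of 24 microglia and macrophage genes 2 rose, CORO1A and cd74b, both at 0.40. Of 23 interferon genes 5 rose and 2 fell, with IRF7 at 0.55 and isg15 at 1.55. Of 48 cerebellar genes 2 rose and 8 fell, and of 48 telencephalic genes 9 rose and 7 fell.

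Several metabolic and chromatin lists had changed members in both directions or few in all. The share called was 45.2% for insulin signalling and fuel choice, 23.3% for sterol synthesis and 20% for xenobiotic genes, against 29.7% of all genes. Of 62 genes of insulin signalling and fuel choice, 7 rose and 21 fell. The mitochondrial regulator PPARGC1A averaged 4.28 CPM in F2 and 9.14 CPM in F0, akt3b 22.0 CPM in F2 and 43.2 CPM in F0, and a copy of IGF1R (ENSDARG00000027423) fell by 1.15, while cpt1ab, of fatty acid import into mitochondria, rose by 0.68. Of 30 sterol synthesis genes 7 fell and none rose, among them the regulators SREBF1, srebf2 and SCAP at -1.65, -0.29 and -1.39. Of 29 DNA methylation genes 4 rose and 5 fell, and 31% were called, near the 29.7% of all genes. The copies of DNMT3A, a DNA methyltransferase, differed, since ENSDARG00000005394 averaged 2.94 CPM in F2 and 11.6 CPM in F0 and ENSDARG00000015566 163 CPM in F2 and 136 CPM in F0. TET2, which oxidises methylated cytosine, fell by 0.25, and a copy of TDG (ENSDARG00000013004), a repair enzyme of demethylation, rose by 0.29. Of 70 histone modifier genes 9 rose and 12 fell, and 30% were called, near the share of all genes, with HDAC5 at -1.45 and HDAC4 at -1.30. Of 40 xenobiotic genes 6 rose and 2 fell, including cyp2k18 at 1.48 and ABCC1 at 0.55. Fewer were called on the stress axis list, 18.2% of 33 genes (1 rose and 5 fell, CRHR1 at -0.84), and among 51 immediate-early genes (1 rose and 5 fell, fosaa at -1.48; list median 0.09), than the 29.7% of all genes.

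Lists of other tissues held few called genes, below the 29.7% of all genes. Of 47 genes of retinal photoreceptors and lens 1 passed the test (RPE65, 0.53), of 20 erythrocyte genes 2, of 27 epithelial genes 1, of 30 meningeal and fibroblast genes 1, of 15 pineal genes 1 and of 10 liver genes 1. Of 35 muscle genes 6 rose and 2 fell. The 2 that fell included RYR1, a calcium release channel also found in neurons, at -0.36. The photoreceptor and lens list had a low median log2 fold change, -0.85 in PH and -0.68 in SCA, and 9 of its 47 genes were above 0 in PH. Its deviation was 1.03 in F2 female 5, and 1.02 in both F0 female 10 and F0 male 17 and 1.78 in F0 male 19, and below 0 in the other 12 libraries. The pineal list had a median of -0.38. The summed level of the photoreceptor and lens list was 1101 to 1717 CPM in F2 and 1066 to 1821 CPM in F0, and that of the erythrocyte list 817 to 1250 CPM in F2 and 633 to 1821 CPM in F0. The 7 photoreceptor markers summed to 8.27 to 179 CPM in F2 (median 14.1) and 5.01 to 182 CPM in F0 (median 10.9). Most of the summed level of the photoreceptor and lens list therefore came from other genes. The part of other tissues in the results was not tested.

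The same contrast within each sex gave 1095 genes higher and 2203 lower in females (18.6% of genes tested) and 0 higher and 2 lower in males (0.0113%). In males 4281 genes had an unadjusted p under 0.05, and DESeq2 called 1401. The difference between the sexes itself was called for no gene by edgeR, by DESeq2 or by limma voom, with 935 genes at an unadjusted p under 0.05 in edgeR, so the sexes were not shown to differ. Without F0 male 12 the male contrast called 3468 genes, and without F2 male 9 it called 1697. The female count was 1412 without F2 female 5, 2031 without F2 female 4, 1300 without F0 female 16, 1815 without F0 female 15 and 1972 without F0 female 10. The list medians stood on the same side in both sexes for ribosomal proteins, at 0.57 in females and 0.44 in males, and for potassium channels, at -0.70 in females and -0.84 in males. Other list medians stood on opposite sides of 0, such as photoreceptors and lens at 0.07 in females and -1.27 in males, the mitochondrial genome at 0.26 in females and -0.04 in males, sterol synthesis at 0.10 in females and -0.22 in males, the sodium pump at 0.06 in females and -0.23 in males and the stress axis at 0.01 in females and -0.25 in males. These list differences were not tested. The 3 genes of smallest p for the difference were CIB2, foxh1 and TK2. CIB2 had a log2 fold change of 0.48 in females and -0.09 in males, foxh1 of -1.86 in females and 0.61 in males and TK2 of 0.68 in females and -0.14 in males, none with an adjusted p under 0.05.

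The control lineage went through the same generations without exposure, and F2 SCA brains differed from F0 SCA brains as well, though in fewer called genes. In SCA, 847 genes were higher and 494 lower of 17971 tested (4.71% and 2.75%, or 7.46% in all). Leaving out any of 14 of the 16 SCA libraries in turn moved this count by more than 1.5 times, with a range of 651 genes (without F2 female 6) to 2325 genes (without F2 female 4); the exceptions were F0 female 14 and F0 male 17. The 2 lineages share no library in these contrasts. Over 17472 genes tested in both, the log2 fold changes were correlated across genes at Pearson r = 0.63 (Spearman rho = 0.64), a description over genes that are not independent. Of 5257 genes called in PH, 93.8% had the same sign in SCA. In both lineages 369 genes were called higher and 273 lower, which is 12.2% of the PH calls and 48.6% of the SCA calls, and 5 genes were called in opposite directions. The median absolute log2 fold change of the genes called in PH was 0.64 in PH, where they were chosen, and 0.34 in SCA.

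The gene groups named above had like directions in SCA for some lists and not for others. In SCA 33 of 82 ribosomal protein genes rose and none fell (median 0.33), and 8 of 19 genes of the cold and RNA-binding list rose. Of potassium channel genes in SCA 2 rose and 3 fell, with a median of -0.34, against -0.87 in PH. Of 10 sodium channel genes 0 were called in SCA, with a median of -0.12, against -0.32 in PH. Of calcium channel genes 2 rose and 1 fell in SCA, with a median of -0.14, against -0.44 in PH. The microglia list had a median of 0.28 in PH and -0.10 in SCA, and the proliferation list 0.19 in PH and -0.14 in SCA. Of synaptic vesicle genes 1 of 72 fell in SCA, with a median of -0.04, against -0.19 in PH. Of GABA genes 2 of 32 fell in SCA, with a median of -0.49, against -0.64 in PH. Counts of called genes are not directly comparable between the lineages, since 7.46% of all genes were called in SCA and 29.7% in PH. Of clock activators and nuclear receptors 4 rose and 4 fell in SCA, with a median of -0.20 in PH and 0.15 in SCA. On the clock repressor list 4 genes rose and 11 fell in SCA, with a median of -0.19 in PH and -0.20 in SCA. Of clock output genes 4 rose and 6 fell in SCA, with a median of -0.65 in PH and -0.07 in SCA. The photolyase and repair list had a median of 0.25 in PH and -0.01 in SCA. Of sterol synthesis genes 1 rose and 11 fell in SCA, with a median of -0.46, against -0.03 in PH. For cry3a the log2 fold change was 0.91 in PH and 1.62 in SCA, for NR1D1 -0.89 in PH and -2.02 in SCA, for dbpa -1.33 in PH and -1.39 in SCA, and for ptpro -0.81 in PH and -0.25 in SCA.

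A direct test of the difference between the lineages, PH minus SCA, called 28 of 18619 genes (0.15%), 12 with a positive and 16 with a negative difference. Lanes were not matched between the lineages, and the part of lane in this difference was not tested beyond leaving out the F2 PH females of lane L2, which left 12 genes called. Clock-linked genes, from lists chosen with earlier results of these data known, made up 9 of the 28. For 7 of these the change between generations had the same sign in both lineages and was smaller in PH. The difference was -0.71 for cry3a (edgeR adjusted p = 0.021), 1.14 for NR1D1 (0.038), 1.12 for ciarta (0.021), 0.68 for PER1 (ENSDARG00000012499, 0.021), 0.76 for CRY2 (0.032), 0.75 for dbpb (0.027) and 0.79 for BHLHE41 (0.0498). Among F2 PH libraries, female 16, male 11 and male 12 had the levels nearest to F0 PH for all 7 of these genes. What these libraries contributed to the difference was not tested beyond leaving each out in turn. The other clock-linked genes were usp2b, at -1.89 in PH and 0.04 in SCA, and KLF9, at -1.98 in PH and 1.23 in SCA. On a scale common to 32 libraries, KLF9 averaged 10.3 CPM in F2 PH and 41.6 CPM in F0 PH, and 45.9 CPM in F2 SCA and 18.4 CPM in F0 SCA. Over 37 alternatives the call of KLF9 held in 28 and those of NR1D1, usp2b and BHLHE41 in 14, 10 and 8. Those of PER1, dbpb and CRY2 held in 36, 32 and 24, and those of cry3a and ciarta in all 37.

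**Figure D5:**
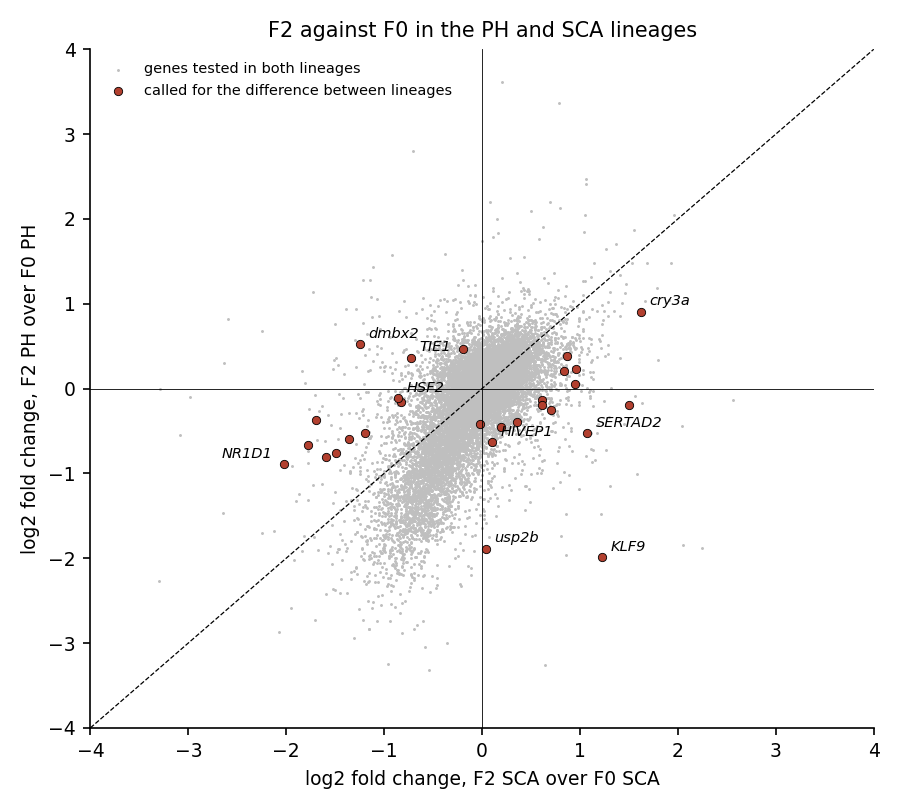
Each grey point is a gene tested in both lineages, with its log2 fold change in the SCA lineage on the horizontal axis and in the PH lineage on the vertical axis, both F2 over F0; the dashed line marks equal change, and 7 genes lie beyond the axes. Red points are the 28 genes called for the difference between lineages, among them KLF9 at -1.98 in PH and 1.23 in SCA, and NR1D1 at -0.89 in PH and -2.02 in SCA.

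Outside the clock, the smallest adjusted p was that of HSF2, a heat shock transcription factor, at -0.11 ± 0.08 in PH and -0.85 in SCA (difference 0.75, edgeR adjusted p = 0.0025). HIVEP1, a zinc finger transcription factor gene, fell in PH with no overlap, with 102, 160 and 213 CPM in F2 and 219, 229 and 322 CPM in F0, and had a value of 0.10 in SCA. SPRY4, an inhibitor of growth factor signalling, was at -0.40 in PH and 0.35 in SCA, and the kinase gene MAPK6 at -0.45 in PH and 0.20 in SCA. TIE1, an endothelial receptor, was at 0.36 in PH and -0.73 in SCA. The repressor gene ERF was at -0.26 in PH and 0.70 in SCA, SERTAD2 at -0.53 in PH and 1.07 in SCA, and rsrp1 at 0.23 in PH and 0.96 in SCA.

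For the F1 libraries no lane is given, and the values of F1 PH fish are given without a test. Genes held 34.8 to 36.6% of the total in F1 PH libraries, against 31.4 to 33.8% in F0 and F2 PH. Counts in genes were 4802827 to 10032850 in F1 PH, against 7381621 to 8070777 in F0 and F2 PH. The place of F1 beside the other generations cannot be told apart from these differences. Of the 35 clock-linked genes called between F2 and F0, the F1 mean lay between the F0 and F2 means for 17, beyond the F2 mean for 15 and on the other side of the F0 mean for 3. Some of these placements rest on differences far smaller than the SD. BHLHE40, counted as beyond F2, averaged 409 ± 80 CPM in F1 and 410 ± 48 CPM in F2. The gene cry5, counted as between, averaged 27.2 ± 7.1 CPM in F1 and 27.4 ± 4.5 CPM in F2 (SD, n = 8 each). On a scale common to 24 PH libraries, dbpa averaged 115 ± 22 CPM in F0, 49.1 ± 11.5 CPM in F1 and 45.5 ± 8.1 CPM in F2 (SD, n = 8 each). For tefb the means were 142 ± 39 CPM in F0, 54.0 ± 23.6 CPM in F1 and 46.5 ± 13 CPM in F2. For cry3a they were 328 ± 47 CPM in F0, 774 ± 165 CPM in F1 and 612 ± 84 CPM in F2. KLF9 averaged 41.7 ± 34.4 CPM in F0, 3.96 ± 3.60 CPM in F1 and 10.3 ± 5.1 CPM in F2.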

How the data were processed

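RNA from whole brains of adult fish was sequenced, and 1 count table per library was deposited. The deposited values are raw read counts per gene, made by the authors with STAR 2.7 and HTSeq 0.11.2 on GRCz11 (danRer11), with DESeq2 1.24.0 also named, per the submitters' processing notes. Neither the annotation release nor the strand setting is given in the sources used here. Without strand, reads of a gene and its antisense partner cannot be told apart. The 5 summary lines without a gene were left out. Genes held 31.4 to 32.7% of the total in F2 PH and 32.1 to 33.8% in F0 PH, and the summary lines the rest.

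Counts of 32520 genes were tested with edgeR 4.0.16 (R 4.3.3) by its quasi-likelihood test, with filterByExpr, TMM scaling, sex as a block and Benjamini-Hochberg adjustment at 0.05. Contrasts within each sex, the sex difference, the SCA contrast and the lineage difference were fitted likewise. DESeq2 1.42.0 and limma 3.58.1 were alternatives. The SE is the log2 fold change divided by the root of F. On simulated counts for PH F2 against F0 with 200 changed genes, 66.7% of genes changed by 1 on the log2 scale were recovered and 32.3% of those changed by 0.5. For the male contrast these shares were 40.4% and 5.05%, and for the lineage difference 56% and 20%. In the data 5282 genes were called between F2 and F0 PH, so recovery there may differ from the simulated share.

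Symbols came from a gene name table, which named 29201 IDs, so zebrafish genes often carry human-style names. Named genes are, per direction, the 10 of largest fold and the 8 of smallest p among called genes without overlap, up to 3 members per list, 8 genes of the lineage difference and 3 of the sex difference, besides called members added after their values were seen. The libraries compared and the gene lists were chosen with earlier results of these data known. Some genes that the rule names are not reported here.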

Additional observations from a re-analysis of the deposited data

Results flagged for a closer look

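In 32 of 318 sets of 8 libraries tested, 1 library lay apart from the other 7 by more than 0.526 of the whole range (Dixon's critical value for 8 samples). Chance alone flags about 1 in 20 such sets where values are normally distributed. Whether these CPM values are was not tested, so the rate by chance here may differ. The sets are not independent, since they share the same libraries. F2 PH male 9 was the highest of its generation for PACS2 at 4.91 CPM, ciartb at 7.05 CPM, akt3b at 31.9 CPM, SLC6A11 at 35.3 CPM, CLOCK (ENSDARG00000011703) at 7.81 CPM, usp2b at 4.28 CPM, SOX9 at 15 CPM, SLC1A3 at 20.3 CPM, RAB3A at 16.9 CPM, CACNB4 at 4.91 CPM and IGF1R at 7.93 CPM. F2 PH female 16 was the highest of its generation for LNX1 at 105 CPM and MAPK6 at 186 CPM. F2 PH male 9 was the lowest of its generation for CLK1 at 33.8 CPM and gria4a at 161 CPM. F2 PH female 16 was the lowest of its generation for SLC24A2 at 1.13 CPM. F2 PH male 11 was the highest of its generation for cry5 at 36.1 CPM. F0 PH male 12 was the highest of its generation for cry3a at 432 CPM, selenow1 at 71.2 CPM and cry3b at 88.6 CPM. F0 PH male 12 was the lowest of its generation for tefb at 51.3 CPM, CACNA2D2 at 57.9 CPM and CLOCK (ENSDARG00000003631) at 8.38 CPM. F0 PH male 17 was the lowest of its generation for cd22 at 0.36 CPM. F0 PH female 15 was the lowest of its generation for CLCN5 at 3.89 CPM. F0 PH male 22 was the highest of its generation for CEP170B at 33.9 CPM. F0 PH male 17 was the highest of its generation for SREBF1 at 19.2 CPM. F0 PH female 9 was the lowest of its generation for RYR1 at 73.5 CPM. Among summed lists, the erythrocytes list stood out in F0 male 12 at 1821 CPM, the retinal photoreceptors and lens list stood out in F2 female 5 at 1717 CPM, the skeletal muscle list stood out in F2 male 11 at 1585 CPM and the liver proteins and vitellogenin list stood out in F2 female 4 at 833 CPM. In F2 the 5 skeletal muscle markers summed to at most 10.5 CPM and the 7 photoreceptor markers to at most 179 CPM. Most of the level of these 2 lists therefore came from other genes. The part of the flagged libraries in the differences between generations was not tested beyond leaving them out.

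The log2 fold change of F2 over F0 differed between the PH and SCA lineages, by the interaction test of edgeR, for the genes that follow. The difference, PH minus SCA, was positive for HSF2 (0.75), TIE1 (1.09), ciarta (1.12), ZNF395 (0.68), PER1 (0.68), SOX3 (0.67), dmbx2 (1.80), dbpb (0.75), CRY2 (0.76), NR1D1 (1.14), si:ch211-132b12.7 (1.33) and BHLHE41 (0.79). It was negative for HIVEP1 (-0.73), SPRY4 (-0.74), MAPK6 (-0.64), ERF (-0.95), SERTAD2 (-1.59), rsrp1 (-0.72), csrnp1a (-1.68), RAD54L2 (-0.62), zhx3a (-0.88), cry3a (-0.71), tiparp (-0.74), IRS2 (-0.80), KLF9 (-3.19), LNX1 (-0.39) and usp2b (-1.91).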

How the results depend on the processing

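The count of 5282 genes in PH was 4752 to 5719 under DESeq2, limma voom, RLE factors, upper-quartile scaling, library size alone and other filters, and none of these called a gene in the opposite direction. It was 4058 without the F2 females 3 and 4 of lane L2, 663 against a fold of 1.5 (glmTreat), and 4213 to 6761 when each library was left out in turn. The female count ranged from 1300 to 4238 on leaving out 1 library. The male count of 2 was 1401 with DESeq2, 6 without a filter on low counts, 0 in a fit on the 8 male libraries and 0 to 3468 on leaving out 1 library. The sex difference was 0 to 1 on leaving out 1 library. The SCA count of 1341 was 2356 with DESeq2 and 651 to 2325 on leaving out 1 library. The lineage difference of 28 genes was 131 with DESeq2, 12 without the F2 females 3 and 4, and 19 to 66 on leaving out 1 library. The cause was not tested. Of 8380 alternative values of 254 genes, 7808 kept direction and side of the threshold, 559 lost the call and 3 changed sign. All 3 were zhx3a, not called, at 0.052 in the main test, -0.038 with library size alone, -0.0067 without F0 male 12 and F2 male 11, and -0.024 (without F2 female 16) to 0.149 (without F0 female 15) on leaving out 1 library. No paired analysis was possible, since the labels do not pair F2 with F0 libraries. The F2 and F0 PH groups share the number 16 in females and 12 in males, and nothing in the labels says that a shared number marks a pair. Low genes rest on few counts, and differences there may not be detectable at this depth.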
